A study of Mus musculus with 8 samples.

Results

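The S100 calcium-binding proteins examined here are 8 genes, S100b, S100a1, S100a4, S100a6, S100a10, S100a11, S100a13 and S100a16, taken by symbol from a fixed list and not by their values. All 8 were listed among the 20608 gene symbols of the sorted-astrocyte RNA-seq and among the 27998 gene entries of the single-cell matrices. Mice with the Patched 1 deficient genotype, which lack full function of a receptor that holds Hedgehog signalling in check, supplied every sample; they develop medulloblastoma, a tumour of cerebellar granule neuron precursors. All groups shared this genotype, and no label names a wild-type control, an age or the promoter of any Cre. Droplet single-cell RNA-seq covered 1 primary tumour and 1 relapsed tumour at 3 weeks, and bulk RNA-seq covered flow-sorted astrocytes in 6 libraries, 3 labelled stroma A and 3 labelled stroma B. The study compared astrocytes of primary and relapsed tumours, but no label says which stroma belongs to which, so both keep their label names. The title and source of the relapsed single-cell library were followed where its description names a primary tumour.

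S100 proteins are small EF-hand proteins that mostly act as dimers and expose a binding surface for partner proteins when calcium rises. In the brain, S100b is a common marker of astrocytes and is also made by cells of the oligodendrocyte lineage. S100a1 is best known from muscle, where it acts on calcium handling, and S100a13 takes part in the unconventional release of fibroblast growth factor 1. S100a4 binds non-muscle myosin, S100a6 binds the calcyclin-binding protein Cacybp, and S100a10 has lost calcium binding and forms a complex with annexin A2. S100a11 also pairs with annexins, and S100a16 is a broadly expressed member.

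On mm10 in GENCODE M21, 7 of the 8 genes lie on chromosome 3, and S100b lies at chr10:76253853-76261159 on the plus strand. S100a1 (chr3:90511034-90514392, minus strand) and S100a13 (chr3:90514435-90524581, plus strand) are head to head with 42 bases between their starts. S100a16 (chr3:90537254-90543151, plus strand) starts 22.9 kb further along. S100a4 (chr3:90603771-90606045) and S100a6 (chr3:90612882-90624181) stand in the same block of 12 S100 genes, which spans 185 kb. S100a11 (chr3:93520488-93526287) and S100a10 (chr3:93555080-93564643) are about 3 Mb away. The strand setting of the bulk counts is not given in the sources used here, so reads of S100a1 and of S100a13 that run past a start, and reads of genes whose models overlap, could not be told apart.

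Sequences are shown before the starts of S100a13 (the last 30 of the 42 bases between it and S100a1), S100a16 and S100b. These genes and S100a1 had the highest bulk levels per length, and S100a1 and S100a16 were the members that differed between groups by the test. The sequences are RefSeq, GRCm38.p6, plus strand, 5′ to 3′, at chr3:90514405-90514434, chr3:90537054-90537253 and chr10:76253636-76253835. The S100b stretch ends at its RefSeq start, upstream of the GENCODE start given above. Capitals mark matches on either strand to any of 5 motifs. The GC box is spelled GGGCGG. The CCAAT box is spelled as named. The TATA box was searched as TATAAA, the Sox-type motif as ACAAAG and the E-box as CANNTG, and none of the capitals shown belongs to 2 motifs.
S100a13: aggggctgtcctgtgtttctttccgttctt
S100a16: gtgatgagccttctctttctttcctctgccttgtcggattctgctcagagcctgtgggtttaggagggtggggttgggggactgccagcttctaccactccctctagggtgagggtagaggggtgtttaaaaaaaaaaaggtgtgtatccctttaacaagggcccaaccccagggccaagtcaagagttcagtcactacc
S100b: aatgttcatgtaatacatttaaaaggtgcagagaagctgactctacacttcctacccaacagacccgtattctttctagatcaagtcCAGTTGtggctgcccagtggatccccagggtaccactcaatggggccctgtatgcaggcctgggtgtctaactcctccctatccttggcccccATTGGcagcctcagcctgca
In the 250 bases before the start, CCAAT matched 2 times in S100b and did not match in S100a1, S100a13 or S100a16, and 33.9% of all 32851 promoter windows held it. GGGCGG, held by 32.7% of windows, matched none of these 4 genes. The E-box, the loosest of the motifs and held by 66.2% of windows, matched 1 time each in S100b, S100a13 and S100a16. Some of these matches lie outside the stretches printed.

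The sorted libraries held 6718165 to 11798735 reads, and the single-cell libraries held 9164 and 7852 barcodes with a median of 5404 and 7230 UMIs. Nothing in the labels says that the sorted libraries came from separate animals, so p-values measure the spread between these libraries, which may be technical. The label astrocyte was checked against 15 astrocyte markers, all of which were tested, and their summed level was 3671 to 9585 CPM in stroma A and 5385 to 13606 CPM in stroma B. None was called. Fitted values were higher in stroma B for 12 of the 15, opposite to S100b, and lower for 3, where 6863 of all 14176 genes were higher. The markers given next are all from the higher side. Slc1a3, a glutamate transporter, measured 426 ± 222 CPM in stroma A and 2311 ± 1508 CPM in stroma B (SD, 3 libraries each), and the water channel Aqp4 118 ± 110 and 705 ± 336 CPM. Both were without overlap, as were 14.2% of all genes in that direction. Gfap measured 87.8 ± 54.8 and 581 ± 453 CPM, with overlap. Markers of oligodendrocyte precursors summed to more than this in every stroma A library, at 14749 to 24520 CPM, and in stroma B they reached 3639, 5093 and 16080 CPM. The 2 tumours shared 93 cell barcodes, and predicted doublets were removed.

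In the sorted libraries, S100a1 and S100a16 were several-fold lower in stroma B than in stroma A, and they were the members that passed the test. In CPM, S100a1 measured 307, 354 and 156 in stroma A, and 32.6, 20.8 and 44.7 were its stroma B values. S100a16 measured 366, 428 and 201 CPM in stroma A and 60.9, 63.1 and 66.4 CPM in stroma B. For both genes every stroma B library lay well below the lowest stroma A library, and the stroma B libraries were close to one another for S100a16. S100a1 fell by 3.06 on the log2 scale (SE 0.41), from 272 ± 104 to 32.7 ± 11.9 CPM (SD, n = 3 each), with an adjusted p of 0.0422 in edgeR's quasi-likelihood test. S100a16 fell by 2.38 (SE 0.30), from 332 ± 117 to 63.5 ± 2.75 CPM (SD, n = 3 each), with an adjusted p of 0.0394 in the same edgeR test. In bulk RNA, fewer cells that make a transcript and less of it per cell cannot be told apart.

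S100a13, the neighbour of S100a1, measured 109, 125 and 79.1 CPM in stroma A and 19.1, 19.2 and 58.5 CPM in stroma B. Its groups did not overlap, with stroma B replicate 3 well above the other stroma B libraries, and its fitted log2 difference of -1.69, with an SE of 0.48, had an adjusted p of 0.125 in edgeR. S100b, the astrocyte marker of the family, measured 208, 238 and 113 CPM against 56.7, 132 and 76.0 CPM. One stroma B library exceeded the lowest stroma A library, and the fitted log2 difference was -1.08 with an SE of 0.39 (adjusted p 0.184 in edgeR).

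The members that bind myosin, Cacybp and annexins were scarce in the sorted libraries and did not pass the test. S100a4 measured 5.93, 21.2 and 6.96 CPM in stroma A and 8.10, 2.75 and 1.84 CPM in stroma B, with 1 high stroma A library. S100a6 measured 11.4, 17.9 and 19.1 against 16.6, 9.67 and 9.86 CPM. S100a10 measured 2.17, 18.2 and 10.4 against 9.54, 17.9 and 4.52 CPM, and S100a11 measured 0.228, 4.96 and 9.77 against 2.88, 5.23 and 0.737 CPM. The libraries of the 2 groups were intermixed for these 4 genes, whose edgeR adjusted p-values ran from 0.308 for S100a4 to 0.973 for S100a10.

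**Figure D1:**
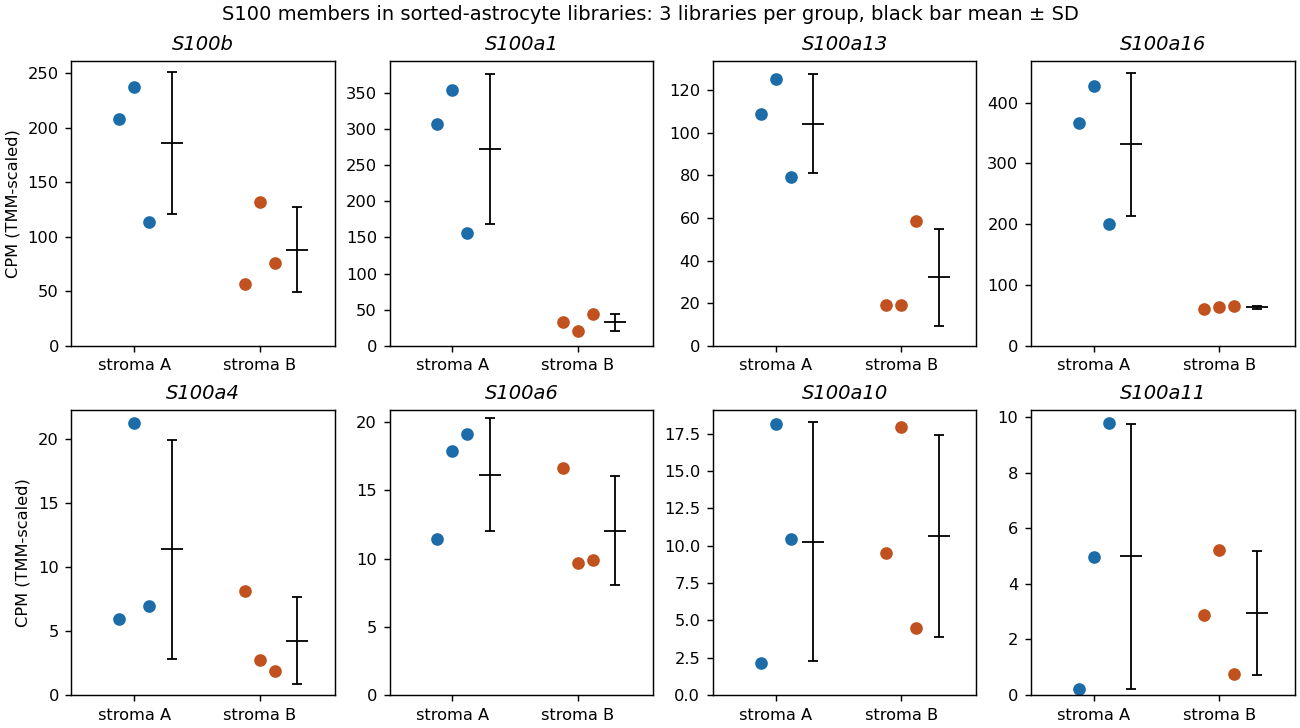
CPM (TMM-scaled, linear axis from 0) of each S100 member in the 3 stroma A and 3 stroma B libraries, 1 point per library in replicate order, with the mean ± SD as a black bar. S100a1, S100a13 and S100a16 show no overlap between groups, S100b overlaps, and the members of the lower row are mixed.

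Over all genes tested, 94 of 14176 were called at an adjusted p under 0.05, which is 0.663%, and 2 of the 8 members were called, both lower in stroma B, where 0.275% of genes were called in that direction. At an unadjusted p under 0.05 there were 4 members, against 21.8% of all genes. The groups did not overlap for 3 members, against 27.2% of genes, and all 3 were lower in stroma B, against 13.1% of genes. Fitted values were below 0 for 7 members, against 51.6% of genes. The median log2 fold change was -1.25 over the members and -0.03 over all genes tested. With any single stroma A library left out, or stroma B replicate 1 or replicate 2, edgeR called 0 genes and 0 members, with 2067 to 3781 genes and 3 to 4 members at an unadjusted p under 0.05, whereas without stroma B replicate 3 there were 1342 genes and 3 members (S100a1, S100a13 and S100a16) called. The log2 fold change stayed between -3.34 and -2.80 for S100a1 and between -2.64 and -2.04 for S100a16 over 11 alternatives.

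Levels were compared between genes on the FPKM scale, which divides by gene length. In stroma A the order was S100a1 at 190 ± 79.9, S100a16 at 108 ± 42.5, S100a13 at 61.1 ± 17.5 and S100b at 37.8 ± 13.9 FPKM (SD, n = 3 each), and the other 4 members averaged 5.40 to 10.1 FPKM. In stroma B the 4 leading genes lay close together, with S100a1 at 26.1 ± 11.1, S100a16 at 23.9 ± 2.19, S100a13 at 22.2 ± 16.7 and S100b at 21.2 ± 10.5 FPKM (SD, n = 3 each). Neighbours in the stroma B order lay within 1 SD of each other, while S100a1 led S100a16 in each stroma A library. All 8 members together took 0.0612 to 0.130% of reads in stroma A and 0.0211 to 0.0259% in stroma B. S100b made up 19.0 to 20.6% of member reads in stroma A and 27.5 to 48.7% in stroma B.

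Markers of other cell types moved with these groups, and across the genes tested (which are not independent replicates) stroma B replicate 3 correlated more with stroma A replicate 1 (0.94) than with the other stroma B libraries (0.90 and 0.91). The 11 oligodendrocyte precursor markers all had fitted values lower in stroma B, none was called, and none was at 0. The summed level of these markers in stroma B replicate 3, 16080 CPM, lay within the stroma A range of 14749 to 24520 CPM. Single markers differed there, with Pdgfra (3607 CPM) and Sox10 (781 CPM) below every stroma A library. Olig1 (1981 CPM) and Cspg4 (1082 CPM) lay within the stroma A range. In stroma B replicate 3, S100a1 and S100a16 were at 44.7 and 66.4 CPM, below every stroma A library. The 9 oligodendrocyte markers summed to 1406 to 2376 CPM in stroma A and 190 to 708 CPM in stroma B, and stroma B replicate 3 was the highest of its group for these markers and for S100a13. Microglia and macrophage markers ranged from 46.5 to 3551 CPM in stroma A and from 74.6 to 184 CPM in stroma B, with Tmem119, Trem2 and Pf4 at 0 in 1 library each; of the oligodendrocyte markers, Mobp was at 0 in 1 library. Pericyte markers (1311 to 2582 against 216 to 1110 CPM) were also higher in every stroma A library, as were fibroblast markers (4394 to 7623 against 860 to 3620 CPM). The pericyte and fibroblast lists share Cspg4 and Pdgfra, respectively, with the oligodendrocyte precursor list. The shared gene made up most of each sum in every library. Cspg4 stood at 1027 to 2301 CPM in stroma A and 138 to 1082 CPM in stroma B, with overlap. Pdgfra stood at 3988 to 7606 CPM in stroma A and 485 to 3607 CPM in stroma B. Without the shared gene, the groups overlap in both the pericyte and the fibroblast sums. Schwann and neural crest glia markers were at 688 to 1274 CPM in stroma A and at most 352 CPM in stroma B. Endothelial markers were at 51.4 to 861 against 23.2 to 57.5 CPM, with 1 of 10 called, lower in stroma B. Cycling markers went the other way, at 1364 to 1507 CPM in stroma A and 4158 to 4573 CPM in stroma B, and 7 of 11 rose by the edgeR test, where 0.388% of all genes were called higher. Granule precursor and tumour markers summed to 1573 to 2524 CPM in stroma A and 2542 to 6437 CPM in stroma B, with none of 13 called. The part of these cell types and of cycling cells in the S100 values was not tested.

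**Figure D2:**
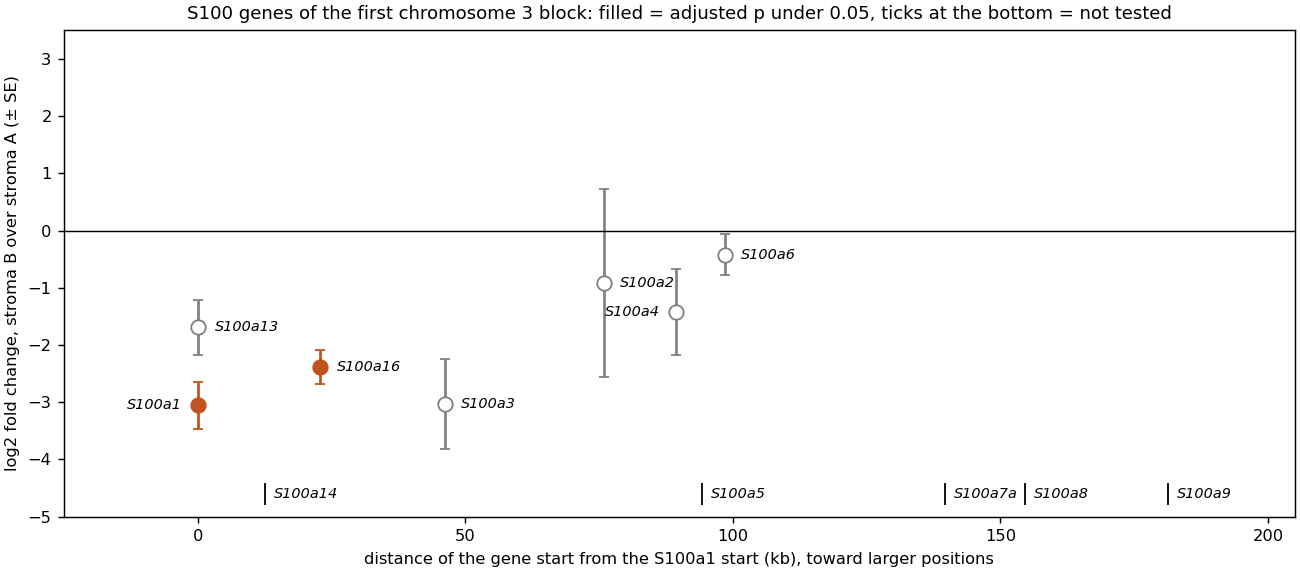
Log2 fold change of stroma B over stroma A (± SE, edgeR) for S100 genes of the first chromosome 3 block against the distance of each gene start from the S100a1 start in kb; filled points passed an adjusted p of 0.05, open points did not, and ticks at the bottom mark genes that were not tested. The 4 genes tested within 46.2 kb of S100a1, that one included, lie between -3.06 and -1.69, and S100a6, 98.5 kb away, lies at -0.42.

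Along the chromosome 3 block, the fitted log2 fold changes were -3.06, -1.69 and -2.38 for S100a1, S100a13 and S100a16, and -1.43 and -0.42 for S100a4 and S100a6 (the plot by distance). Of 9 further S100 genes, S100a2 and S100a3, whose gene models overlap, passed the filter on low counts. S100a2 measured 0, 2.89 and 2.92 CPM in stroma A and 0.444, 0 and 2.58 CPM in stroma B, with intermixed libraries and a fitted log2 difference of -0.92 (SE 1.64, adjusted p 0.769 in edgeR). S100a3 went from 6.37 ± 2.43 CPM in stroma A to 0.773 ± 0.537 CPM in stroma B (SD, n = 3 each). The fitted log2 difference of S100a3 was -3.03, with an SE of 0.79 and an adjusted p of 0.114 in edgeR. S100a8 and S100a9, the calprotectin subunits of myeloid cells, had reads mainly in stroma A replicates 2 and 3, at 3.99 and 1.46 CPM for S100a8 and 7.30 and 5.84 CPM for S100a9. DESeq2, which called 9% of the 19969 genes with any read, called S100a3, S100a8 and S100a9, all lower in stroma B. The 19969 include any genes that the filters of DESeq2 left without an adjusted p.

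Partners and relatives of the S100 proteins gave 0 calls in edgeR. None of 8 annexins was called, 0 had an unadjusted p under 0.05, and DESeq2 called 0. Among 20 intracellular partners, 19 were tested and 0 were called by edgeR or DESeq2, with 3 at an unadjusted p under 0.05. Cacybp, the S100a6 partner, measured 79.9 ± 8.88 and 127 ± 16.9 CPM in stroma A and stroma B (SD, n = 3 in either group), with an adjusted p of 0.127 in edgeR. Among 5 receptors for extracellular S100 proteins, 0 were called by edgeR or DESeq2 and 1 had an unadjusted p under 0.05, Bsg (basigin) at 553 ± 59.6 and 367 ± 47.5 CPM (SD, n = 3 each, edgeR adjusted p 0.172). Of 17 other EF-hand proteins tested, 0 were called by edgeR, 5 had an unadjusted p under 0.05, where 21.8% of all genes did, and DESeq2, with 9% of all genes called, called 4, Pvalb, Hpca, Vsnl1 and Cetn2. Pvalb, the calcium buffer parvalbumin, had the smallest edgeR adjusted p of that list, 0.0769, at 1.47 ± 0.525 and 13.1 ± 7.87 CPM (SD, n = 3 each). The annexins had a median log2 fold change of -0.68, the partners of 0.22, the receptors of 0.27 and the other EF-hand proteins of -0.06, beside -0.03 over all genes.

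Across the 6 sorted libraries, S100a1 and S100a16 followed each other with a Pearson r of 0.98 on log2 CPM, S100a1 and S100a13 with 0.93, and S100a10 and S100a11 with 0.90. These values describe 6 libraries that also differ by group and in marker levels. The genes most like S100a1 were Syde2, Zdhhc23 and Scel (r of 1.00 each after rounding), those most like S100a16 were Six4 (1.00), Lmcd1 (0.99) and Mrps11 (0.99), and those most like S100a13 were Cnp, Pllp and 5730559C18Rik (1.00 each). Cnp encodes a myelin enzyme. S100b was most like Mfsd9 and Dtnbp1 (0.99 each) and Pla2g12a (0.98).

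In the single cells, the members divided by cell class. Classes came from clustering both libraries with all S100 genes left out, so no class rests on a member. With 1 library per tumour there is no test, levels are summed UMIs as CPM, where each UMI stands for 1 captured molecule and no length scaling was applied, and 95% intervals are exact Poisson intervals that cover counting error only. Among named classes of at least 20 cells, S100a13, S100a16 and S100b were highest in oligodendrocyte precursor-like cells of the primary and astrocyte-like cells of the relapsed library. S100a1 was highest in primary oligodendrocyte precursor-like cells, while relapsed fibroblast-like (231 CPM) and astrocyte-like cells (215 CPM) had overlapping intervals. S100a6, S100a10 and S100a11 were highest in fibroblast-like cells of the relapsed library. In the primary library, where fewer than 20 such cells were found, S100a6 and S100a10 were highest in astrocyte-like cells and S100a11 in endothelial-like cells, with an interval that overlapped that of astrocyte-like cells. S100a4 reached at most 62.0 CPM in any class.

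**Figure D3:**
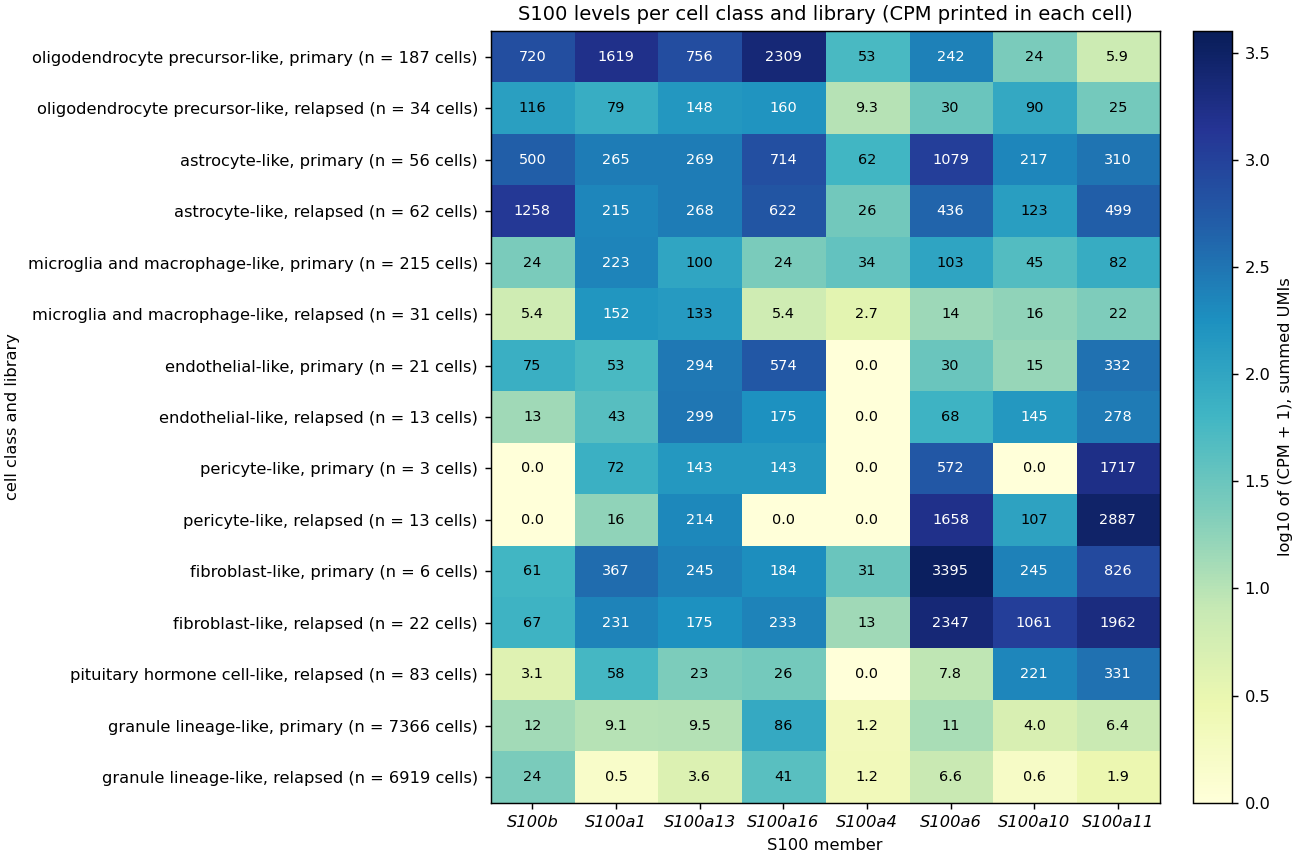
CPM of each S100 member (columns) in each named cell class and library (rows, with cell numbers), coloured by log10 of CPM plus 1 and with the CPM printed. The primary oligodendrocyte precursor-like row is dark for S100b, S100a1, S100a13 and S100a16, and the fibroblast-like and pericyte-like rows for S100a6 and S100a11. S100a16 is the darkest entry of both granule lineage rows.

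Oligodendrocyte precursor-like cells of the primary tumour (187 cells) had the highest S100a1, S100a13, S100a16 and S100b of the named classes with at least 20 cells in that library. S100a1 stood at 1619 CPM (1525 to 1718) there, and the next class, astrocyte-like cells, at 265 CPM (209 to 332). S100a16 stood at 2309 CPM (2196 to 2426) and S100a13 at 756 CPM (692 to 825). These cells were 2.19% of the kept primary cells and held 45.2% of all S100a1 UMIs of that library. S100b stood at 720 CPM (657 to 786), above astrocyte-like cells at 500 CPM (422 to 588). S100a11 was at 5.90 CPM (4 UMIs), at the level of the granule lineage, 6.40 CPM.

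In the relapsed library, oligodendrocyte precursor-like cells (34 cells) were much lower in these 4 genes and higher in S100a10. The log2 ratio of relapsed over primary was -4.36 (-4.90 to -3.87) for S100a1, at 78.8 against 1619 CPM. S100a16 followed at -3.85 (-4.22 to -3.50), from 160 against 2309 CPM. S100a6 had a ratio of -3.01 (-3.95 to -2.19), S100b of -2.64 (-3.09 to -2.21), S100a4 of -2.52 (-4.47 to -1.04, on 4 relapsed UMIs) and S100a13 of -2.35 (-2.75 to -1.97). S100a10 went the other way, with 90.3 against 23.6 CPM and a ratio of 1.94 (1.06 to 2.88). Anxa2, the annexin that S100a10 binds, stood at 71.8 CPM (48.8 to 102) in relapsed and 11.8 CPM (5.1 to 23.2) in primary cells of this class; it was singled out after its values were seen. All 7 members with enough UMIs were at least 2-fold apart, where 27.9% of 6798 genes were; 6 were lower in the relapsed library, against 18.1% of genes, and 1 was higher, against 9.83%, and the members' median was -2.64 against -0.14 for all genes.

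Cells of this class came from different clusters in the 2 libraries, 6 sub-clusters holding the primary cells and 1 other sub-cluster, led by Phlda1, Serpine2 and Cspg5, holding the relapsed cells. Markers of the class differed too: 9 of its 11 markers were at least 2-fold lower in the relapsed cells, with a median log2 ratio of -1.87 and a range of -4.28 to 0.68. Their summed level was 9509 CPM in primary and 3811 CPM in relapsed cells. Pdgfra stood at 997 and 287 CPM, Olig1 at 3611 and 1659 CPM and Sox10 at 416 and 114 CPM. Granule precursor and tumour markers summed to 1413 and 2759 CPM. The median depth was 3421 UMIs in primary and 12839.5 UMIs in relapsed cells, and the median mitochondrial share was 6.22 and 3.43%. The part of these differences in the S100 values was not tested.

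Within the primary oligodendrocyte precursor-like cells, 5 of the 6 sub-clusters had 1577 to 2167 CPM of S100a1 and 2299 to 2846 CPM of S100a16. The sixth (13 cells, led by Cspg5, Cntn1 and Ptprz1) had 751 CPM of S100a1, 778 CPM of S100a16 and 362 CPM of S100a13, above the relapsed cells for each gene. An unnamed neighbouring sub-cluster of 21 primary cells, with the myelin genes Cnp and Mbp among its leading genes, had 2554 CPM (2315 to 2811) of S100b, the highest of the sub-clusters with at least 10 cells of a library. It also had 2297 CPM (2070 to 2541) of S100a1 and 1574 CPM (1387 to 1779) of S100a13. S100a1 was among the 10 leading genes by fold in 6 of the 7 primary sub-clusters, although it took no part in the clustering. S100a3 also stood at 56.0 CPM (39.7 to 76.9) in primary oligodendrocyte precursor-like cells and at 2.3 CPM (1 UMI) in relapsed ones.

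**Figure D4:**
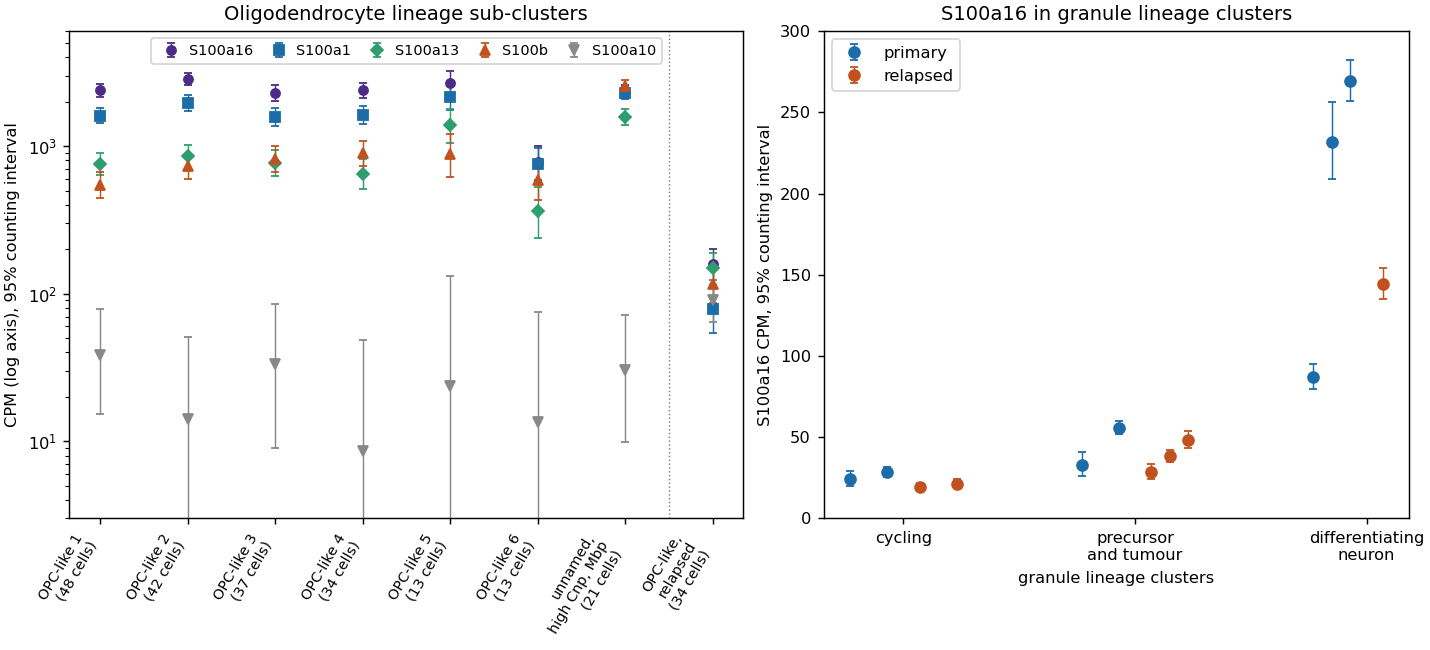
Left, CPM (log axis, 95% counting intervals) of 5 members in the 6 primary oligodendrocyte precursor-like (OPC-like) sub-clusters, the unnamed myelin-gene sub-cluster and the relapsed OPC-like cells. Right, S100a16 CPM in granule lineage clusters of at least 20 cells of a library, by class and library: the differentiating clusters reach 144.5 to 269.5 CPM except 1 at 87.1 CPM, and cycling clusters lie at 19.6 to 28.4 CPM.

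At a fixed depth of 1000 UMIs per cell, 73.5% (66.6 to 79.7, Clopper-Pearson) of primary and 7.82% (1.43 to 22.4) of relapsed oligodendrocyte precursor-like cells had an S100a1 UMI. Without thinning the shares were 95.2 and 38.2%. Granule lineage cells, which served as the background for free RNA, gave 0.96% (primary) and 0.05% (relapsed) at the same depth, with unthinned shares of 5.23 and 0.38% and median depths of 5624 and 6966 UMIs. S100b was found in 49.2% (41.9 to 56.6) and 11.8% (3.33 to 27.5) of oligodendrocyte precursor-like cells at the fixed depth. Granule lineage cells gave 1.29 and 1.61%, and the part of free RNA in these S100b shares was not tested. At this depth 68.4% of the primary and 0% of the relapsed oligodendrocyte precursor-like cells had 3 or more members, where 0 of 34 cells allows a share of up to 8.82%. No cell fell below 1000 UMIs in any class.

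Astrocyte-like cells carried all 8 members in both tumours. Their summed level was 3416 CPM (3206 to 3635) in 56 primary cells and 3448 CPM (3337 to 3561) in 62 relapsed cells, and the mix differed. S100b stood at 1258 CPM (1192 to 1328) in relapsed and 500 CPM (422 to 588) in primary cells, a log2 ratio of 1.33 (1.08 to 1.59). S100a6 stood at 436 CPM (397 to 478) in relapsed and 1079 CPM (963 to 1205) in primary cells, a ratio of -1.31 (-1.52 to -1.10). S100b was 36.5% of member UMIs in relapsed and 14.6% in primary astrocyte-like cells, and S100a6 was 12.6 and 31.6%.

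Of the other members of astrocyte-like cells, S100a4 was also at least 2-fold apart, on 18 primary and 28 relapsed UMIs. S100a4 had a ratio of -1.24 (-2.14 to -0.30) at 26.3 against 62.0 CPM, S100a10 of -0.82 (-1.26 to -0.36) at 123 against 217 CPM, and S100a11 of 0.69 (0.36 to 1.02) at 499 against 310 CPM. The intervals of S100a1 (-0.68 to 0.09), S100a13 (-0.37 to 0.37) and S100a16 (-0.43 to 0.03) include 0 and no 2-fold difference. Of 8 members, 3 were at least 2-fold apart, where 19% of 6983 genes were, 1 higher in the relapsed library (4.83% of genes) and 2 lower (14.2% of genes), and the median was -0.25 against -0.19 for all genes. With predicted doublets kept, the ratios of all 8 members shifted upward. S100a4 was then at -0.76 and S100a6 at -0.81, neither 2-fold apart, while S100a11 at 1.30 and S100b at 1.76 were. S100a1 (0.11), S100a13 (0.50) and S100a16 (0.37) changed sign under that setting.

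The astrocyte-like sub-clusters also differed between libraries, so levels within the 2 that held cells of both were compared. In the one led by Fabp7, Mt2 and Mt1, S100b stood at 800 CPM (554 to 1117) in 10 primary cells and 1620 CPM (1518 to 1727) in 28 relapsed cells, and S100a6 at 1058 CPM (772 to 1416) and 445 CPM (393 to 503). In the one led by Fabp7, Id3 and Cst3, S100b stood at 297 CPM (190 to 442) in 18 primary and 699 CPM (575 to 842) in 14 relapsed cells, and S100a6 at 371 CPM (251 to 530) and 44.1 CPM (17.7 to 90.9). Both sub-clusters thus had the order of the whole class for these genes. The highest astrocytic S100a6, 1427 CPM (1251 to 1620), was in primary cells led by Lcn2, Cxcl1 and Mlc1, and a relapsed sub-cluster led by Lcn2, Timp1 and Serpina3n had 611 CPM (527 to 705). The 15 astrocyte markers summed to 15738 CPM in primary and 21166 CPM in relapsed cells, with a median log2 ratio of 0.23, and the median depths were 4545.5 and 16570 UMIs. The part of depth and of the marker levels in the S100 values was not tested.

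At the fixed depth, S100b was found in 35.0% (22.7 to 48.9) of primary and 59.8% (46.6 to 72.1) of relapsed astrocyte-like cells, with unthinned shares of 73.2 and 95.2%. S100a1 was found in 21.6% (11.7 to 34.6) and 16.9% (8.59 to 28.6). These intervals take cells as trials, cells are not replicates of a tumour, and the intervals overlap for both genes. With 1 library per tumour neither difference was tested.

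**Figure D5:**
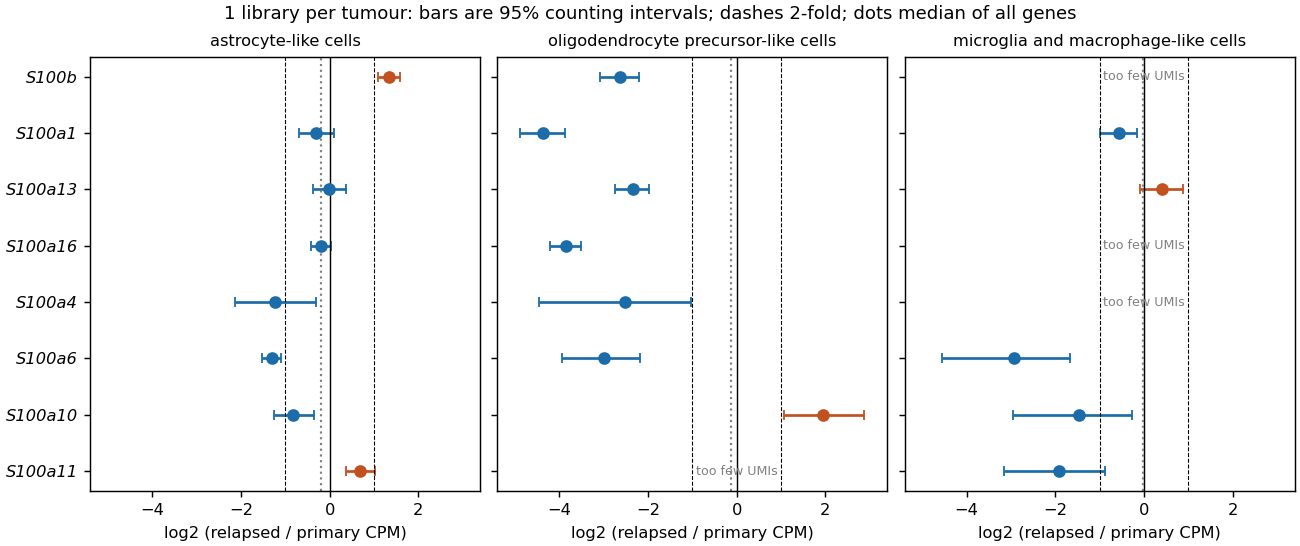
Log2 ratio of relapsed over primary CPM for each member in astrocyte-like, oligodendrocyte precursor-like and microglia and macrophage-like cells, with 95% counting intervals. Dashed lines mark 2-fold and the dotted line the median of all genes; S100b is to the right of 0 in astrocyte-like and to the left in oligodendrocyte precursor-like cells, and S100a10 the reverse.

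In microglia and macrophage-like cells S100a1 had the most UMIs of the members in both libraries, although its interval overlapped that of S100a13 in the relapsed cells and that of astrocyte-like cells in the primary library. S100a1 stood at 223 CPM (202 to 247) in 215 primary cells and 152 CPM (115 to 198) in 31 relapsed cells, and S100a13 at 100 CPM (86.1 to 117) and 133 CPM (98.5 to 176). S100b and S100a16 were at 23.5 CPM each in primary cells and at 5.4 CPM (2 UMIs each) in relapsed cells. S100a6 had 103 against 13.6 CPM and a log2 ratio of -2.93 (-4.57 to -1.68), S100a11 of -1.91 (-3.15 to -0.89) and S100a10 of -1.46 (-2.95 to -0.27), on 5 to 8 relapsed UMIs. Of 5 members with enough UMIs, 3 were at least 2-fold apart, against 14.1% of 6439 genes, and all 3 were lower in the relapsed library, against 7.55% of genes.

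Primary and relapsed myeloid cells lay largely in different sub-clusters. Of the relapsed cells, 22 of 31 were in a sub-cluster led by Wfdc17, Sepp1 and Lyz2. In primary cells, the sub-cluster led by the antigen presentation genes Cd74, H2-Aa and H2-Eb1 (34 cells) held the most S100a6, 470 CPM (383 to 571), S100a11, 251 CPM (189 to 328), and S100a4, 228 CPM (169 to 302). A sub-cluster led by Lgals3, Gpnmb and Lyz2 (20 cells) had 766 CPM (651 to 896) of S100a1. The 2 largest primary sub-clusters, led by Cst7 and by Ms4a7, had 208 and 194 CPM of S100a1 and at most 7.3 CPM of S100a6. S100a8 and S100a9 were found in this class at 78.1 and 68.3 CPM in primary and 21.7 and 40.8 CPM in relapsed cells, and led a sub-cluster with Cxcl2.

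Annexin-binding members were also measured in stromal and endocrine classes. In 22 relapsed fibroblast-like cells S100a6 stood at 2347 CPM (2209 to 2491), S100a11 at 1962 CPM (1837 to 2094) and S100a10 at 1061 CPM (969 to 1159), each the highest in that library among classes of at least 20 cells. The 6 primary fibroblast-like cells had 3395 CPM (2793 to 4089) of S100a6 and 826 CPM (544 to 1202) of S100a11. Pericyte-like cells, 13 of them in the relapsed library, had 2887 CPM (2592 to 3206) of S100a11 and 1658 CPM (1437 to 1904) of S100a6, but 107 CPM (57.1 to 183) of S100a10. S100b, S100a4 and S100a16 had 0 UMIs in these 13 cells, which allows up to 24.7 CPM.

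Pituitary hormone cell-like cells, found in the relapsed library only (83 cells), had S100a11 at 331 CPM (301 to 365) and S100a10 at 221 CPM (196 to 249) with S100a6 at 7.8 CPM (3.7 to 14.4), near the granule lineage of that library at 6.6 CPM. Fibroblast-like cells of that library thus had all 3 of these members, pericyte-like cells mainly S100a11 and S100a6, and pituitary hormone cell-like cells S100a11 and S100a10. Endothelial-like cells, 21 primary and 13 relapsed, had S100a13 at 294 CPM (209 to 402) and 299 CPM (233 to 378) and S100a11 at 332 CPM (241 to 446) and 278 CPM (214 to 354). S100a16 stood at 574 CPM (452 to 718) in the primary and 175 CPM (126 to 238) in the relapsed endothelial-like cells.

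The granule lineage, which includes the tumour cells, made up 7366 primary and 6919 relapsed cells. S100a16 was its highest member in both libraries, at 86.5 and 41.2 CPM, and S100b followed at 12.3 and 23.5 CPM. In the primary library the interval of S100b (11.3 to 13.4) overlapped that of S100a6, at 11.4 CPM (10.4 to 12.4). In the relapsed library, the lineage was 93.9% of kept cells and held 47.5% of S100b UMIs, beside 48.1% in astrocyte-like cells. The large clusters of the lineage held cells of almost 1 library each and the largest primary cluster was led by haemoglobin genes, so levels are given side by side without a ratio. S100a16 ran from 24.2 to 270 CPM over 7 primary clusters and from 19.6 to 145 CPM over 6 relapsed clusters. It stood at 27.3 and 20.2 CPM in cycling cells, at 52.3 and 39.2 CPM in precursor and tumour cells and at 192 and 145 CPM in differentiating granule neurons (primary, then relapsed). The order was the same in both libraries, and the counting intervals of the 3 classes did not overlap within a library. The precursor and tumour class is not free of dividing cells. It includes a cluster of 438 primary and a cluster of 783 relapsed cells with the mitotic genes Ccnb2, Cenpa and Cdc25c among their leading genes. The differentiating class includes a cluster of 908 primary cells, led by Ren1, Hoxb2 and Hoxb3os, in which no differentiation marker passed the 4-fold marker rule. Of its 1086 relapsed cells, 1085 were in 1 cluster. The highest clusters were led by Tex14, Miat and Btbd17 (270 CPM) and by Ppp1r14c, Stmn4 and Neurod1 (232 CPM) among primary cells and by Sst, Pcp4 and Pnoc (145 CPM) among relapsed cells.

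S100b showed another pattern in the granule lineage. It reached 48.2 CPM (44.1 to 52.6) in a relapsed cluster of 1379 cells led by Ung, Chaf1b and Ssu2. That cluster was assigned to the precursor and tumour class, but the DNA replication genes Mcm3 and Mcm6 were also among its leading genes. S100b stood at 20.7 CPM (19.0 to 22.5) in relapsed cycling cells and at 6.2 CPM (4.3 to 8.5) in the relapsed differentiating cluster. In primary clusters it ran from 8.8 to 21.0 CPM. The 717 S100b UMIs of relapsed precursor and tumour cells lay in 262 of 3348 cells. S100a1 ran from 6.5 to 14.2 CPM in primary and from 0.19 to 0.76 CPM in relapsed clusters, S100a13 from 5.6 to 13.6 and 1.2 to 7.7 CPM, and S100a6 from 6.1 to 17.0 and 2.4 to 14.4 CPM. Levels this low in the primary library stand beside a share of 5.23% of granule lineage cells with an S100a1 UMI, and free RNA and expression cannot be told apart there.

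Over 15 sums of a class in a library, S100a1 and S100a13 had a Pearson r of 0.92 on log2 of CPM plus 10, S100a10 and S100a11 of 0.88 and S100b and S100a16 of 0.83, whereas S100a10 and S100a16 had 0.30. Among 11621 genes, S100a13 was the second most like S100a1, after Tns3 (0.94). S100b was most like Etv5, Gucy1a3 and Luzp2 (0.96, 0.96 and 0.95), S100a11 like Ifitm3, Sec24d and Cd151 (0.95, 0.94 and 0.93), and S100a10 like Aebp1, Srxn1 and Slc50a1 (0.93, 0.91 and 0.91). S100a6 was most like Slc12a2 (0.93), S100a16 like Commd6 (0.92), S100a13 like Dynlt3 (0.96) and S100a4 like Dennd4a (0.89). The points share 2 libraries and differ in depth. Over the sorted libraries, S100a1 had an r of 0.93 with S100a13 and a higher r of 0.98 with S100a16. Over the class sums, the r of S100a1 with S100a16 was 0.54. S100a10 and S100a11 had 0.90 over the sorted libraries. Bulk reads of S100a1 and S100a13 that run past a start could not be told apart, as stated above.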

How the data were processed

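Cells freed with papain went into droplets on a Chromium instrument, per the labels' protocols. Seurat, STAR, Cell Ranger and mm10 appear, without roles, per the submitters' processing notes. The authors deposited whole-number UMI counts per cell, whole-number bulk read counts per symbol and bulk FPKM values; for these, a counting tool and strand setting were not given in the sources used here. Stroma A replicate 2 was matched to its columns on a shared start of the name, an assumed match.

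Bulk counts were filtered with filterByExpr, TMM-scaled and tested with edgeR 4.0.16 (quasi-likelihood, R 4.3.3, Benjamini-Hochberg over 14176 genes, threshold 0.05). DESeq2 1.42.0, limma 3.58.1 on log2 of FPKM plus 1, other scaling, no filter and left-out libraries were alternatives. The script was tested on simulated data. Cells with at least 500 genes and at most 10% mitochondrial UMIs passed (9094 primary, 7839 relapsed). The automatic threshold of the doublet caller marked 0 cells in each library and was taken as failed, so the 6% with the highest scores were removed, leaving 8548 and 7369. Both libraries were clustered without integration (scanpy 1.11.5, 2000 variable genes without 12 S100 genes, 30 components, Leiden resolution 1). A class name outside the granule lineage needed 3 markers at 4-fold or more, at least 20 CPM and in 20% of cells. The other clusters were called granule lineage when 3 precursor or differentiation markers reached that level and share, with no fold required, and their median genes per cell were at least 0.65 of the library's; each was assigned to the granule list with the highest mean fold. These rules were set after the data were seen. Shares at 1000 UMIs are expectations over thinnings, and 2000 UMIs was an alternative. The number of members per cell used 1 seeded thinning. Log2 ratios needed 20 UMIs in all and more than 3 in each library, and the limit from a count of 0 is 3 counts. Intervals are at 95% (scipy 1.17.1). Those of levels and ratios cover counting error only, and Clopper-Pearson intervals of shares take the cells of 1 library as trials. Gene models are GENCODE M21.

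All members were named, and of other lists those past the threshold or at most the 4 with the smallest p. The 3 genes most like a member were taken by Pearson r. Members, lists and markers were chosen with earlier results of these data known.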

Additional observations from a re-analysis of the deposited data

Results flagged for a closer look

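Ratios between the tumours pointed opposite ways in different cell classes for 3 members, and none of these differences was tested, since each tumour has 1 library. The log2 ratio of relapsed over primary for S100b was 1.33 in astrocyte-like and -2.64 in oligodendrocyte precursor-like cells, a difference of 3.97. For S100a10 it was 1.94 in oligodendrocyte precursor-like cells, -0.82 in astrocyte-like cells (a difference of 2.76) and -1.46 in microglia and macrophage-like cells (a difference of 3.39). For S100a11 it was 0.69 in astrocyte-like and -1.91 in microglia and macrophage-like cells, a difference of 2.59. Groups of 3 sorted libraries are too small for the check on single outlying libraries.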

How the results depend on the processing

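The number of genes called between the stromas was 94, and it was 227 with no filter on low counts, 1797 with DESeq2 (45.9% higher in stroma B against 58.5% in edgeR), 285 with FPKM in limma and 0 to 1342 when libraries were left out. The number of members called was 2, and 0 to 3 when libraries were left out; with both libraries whose titles share the number 5 left out, stroma A replicate 3 and stroma B replicate 1, it was 0, with 1563 genes and 5 members at an unadjusted p under 0.05. Among scarce members, the fitted log2 difference of S100a10 changed sign to -0.36 with stroma A replicate 1 left out and to -0.54 with stroma B replicate 2 left out (range over left-out libraries -0.54 to 0.76), and that of S100a11 to 0.20 with stroma A replicate 3 left out (range -1.46 to 0.20) and to 0.21 when neither number 5 library entered. The cause was not tested. The median of all genes moved to -0.26 in DESeq2 and 0.24 on the FPKM scale. S100a13 was called by DESeq2 and without stroma B replicate 3. At 2000 UMIs the shares of cells with S100a1 were 36.7 and 29.2% of astrocyte-like cells (primary, relapsed) and 89.1% of primary oligodendrocyte precursor-like cells, and with S100b 54.0, 77.7 and 71.4%; a deeper thinning raises every share. Of 79 member ratios recomputed in single cells, 72 moved less than their counting interval and the other 7 were those of astrocyte-like cells with doublets kept. No paired analysis was possible because the stromas share 1 number in their titles.

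Depth limits the relapsed oligodendrocyte precursor-like (34) and myeloid (31) cells and the members under about 20 CPM in the sorted libraries. Each tumour is 1 library, so tumour, library and depth cannot be told apart.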
